A study of Glycine max with 16 samples.

Results

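Chromatin sites of the soybean transcription factor LEC1 that appeared in both maturation stages, but neither at the cotyledon stage nor with a second antibody, are described here. They number 4701 of the 78759 regions into which the peaks of the 3 stages merge, or 5.97%. A peak is an interval that the authors listed as bound in chromatin immunoprecipitation followed by sequencing (ChIP-seq), by a criterion not stated in the labels. The regions were selected on peak calls alone. Peaks of the 3 lists made with the antibody against recombinant protein were joined wherever they overlapped by at least 1 bp. Regions were kept when they held an early maturation (EM) peak and a mid-maturation (MM) peak, held no cotyledon-stage (COT) peak, and were overlapped by no EM peak of the antibody against a GmLEC1 peptide. They are called peptide-negative maturation regions below, and the 6715 otherwise alike regions with a peptide peak are called peptide-positive.

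The series holds 16 libraries of embryos of the cultivar Williams 82, which are 8 ChIP and 8 input libraries in 8 groups of 2 biological replicates each. COT embryos came from seeds 2.5 to 3.5 mm long and EM embryos from seeds 6 to 7 mm long. MM embryos came from seeds weighing 200 to 250 mg. The recombinant antigen, a GST fusion, was used at every stage, and the peptide antigen at EM alone. Each combination of stage and antibody is represented by 1 peak list, with 51845 peaks at COT, 55140 at EM, 64146 at MM and 49566 for the EM peptide antibody. No spread between replicates can be measured from 1 list, and reads per library are unknown here. All values that follow are therefore descriptions of these 4 lists without a test, and differences between stages or between antibodies cannot be told apart from differences between the experiments behind the lists. An absent peak means that no interval passed the authors' criterion, which is not the same as an absence of LEC1.

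LEAFY COTYLEDON1 (LEC1) is the B subunit of a nuclear factor Y complex, a trimeric factor that binds DNA at CCAAT boxes. In plants it is best known from Arabidopsis, where loss of LEC1 disturbs embryo identity and the entry into seed maturation. Maturation is the phase in which the embryo lays down storage proteins and oil and prepares for drying. In soybean the cotyledon stage precedes that phase, and the early and mid-maturation stages lie within it. In Arabidopsis it acts together with other seed regulators, including the B3 domain factors ABI3 and FUS3 and the basic leucine zipper factor bZIP67. Sequence and genes of the build used for the peaks were not used here, so regions are named by position on Gmax275, the build carried in the peak names. Which genes they adjoin and which motifs they hold was not analysed here.

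The share of maturation regions without a peptide peak was near that of merged regions in general, and the count is therefore no result about them. Of the 11416 regions with EM and MM peaks and no COT peak (14.5% of all merged regions), 41.2% had no peptide peak (exact 95% binomial interval 40.3 to 42.1, counting error only). Over all merged regions that share was 41.3%. The latter figure mixes very different kinds of region. Among regions seen at all 3 stages 10.8% lacked a peptide peak, and among regions seen at COT and MM 50.4%. Among regions of COT and EM the share was 61.1%. Regions of a single stage lacked one in 85.8% of cases for COT, 80.5% for EM and 80.4% for MM. Of the 47351 regions that hold both an EM and an MM peak, 18.1% had no peptide peak and 24.1% had no COT peak.

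The peptide-negative maturation regions were short and simple. They covered 1.37 Mb in all, or 4.79% of the length of the merged regions. The narrowest was 100 bp and the widest 950 bp, with a median of 300 bp and quartiles of 250 and 350 bp. Their EM peaks had a median width of 200 bp and their MM peaks of 250 bp. Peptide-positive regions had a median width of 350 bp, with EM peaks of 250 bp and MM peaks of 350 bp. A width of 500 bp or more was reached by 160 peptide-negative regions (3.40%) and by 1102 peptide-positive ones (16.4%). The lists are built of 50 bp bins and hold no peak under 100 bp. An EM peak of that least width lay in 781 peptide-negative regions (16.6%), against 7.79% of the peptide-positive ones. For MM peaks of the least width the shares were 8.30 and 2.92%.

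Exactly 1 EM and 1 MM peak made up 4685 of the 4701 regions. More than 1 EM peak was joined under an MM peak or next to it in 14, and more than 1 MM peak in 2. The EM and MM peaks of a region lay close together, as in the other sets. The median distance between midpoints was 25 bp, 82.2% of regions had at most 50 bp, and the largest distance was 275 bp. At most 50 bp was also found in 80.3% of peptide-positive regions and in 80.9% of all-stage regions without a peptide peak. A single peak of each list likewise made up 99.0 and 99.1% of these sets. The EM and MM peaks of peptide-negative regions overlapped by a median of 150 bp. The median overlap was 250 bp in peptide-positive regions and 200 bp in all-stage regions without a peptide peak. In 2384 peptide-negative regions (50.7%) the EM peak lay within a wider MM peak, and in 964 (20.5%) the reverse held. Edges were identical in 429 (9.13%), and 924 (19.7%) were staggered. The MM peak was thus the wider one in 2710 regions (57.6%) and the EM peak in 1132 (24.1%). In peptide-positive regions the tilt was stronger, with the MM peak wider in 63.0% and the EM peak in 20.5%. In regions of all 3 stages without a peptide peak the balance was more even, with the MM peak wider in 42.7% and the EM peak in 37.2%. Widths depend on the depth and threshold behind each list, which are unknown, and their part in these shares was not tested.

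Scores were compared as percentiles within each list, where 100 is the highest-scoring peak, because the scale of the authors' score is not given in the sources used here. Where a region held several peaks of a list, its highest-scoring one was taken. The EM peaks of peptide-negative regions had a median percentile of 27.7, with quartiles of 13.2 and 43.0. Their MM peaks had a median percentile of 34.0, with quartiles of 18.4 and 51.6. Peptide-positive regions stood higher in both lists, at 38.9 for EM and 50.3 for MM. The regions of all 3 stages without a peptide peak had medians of 38.2 and 36.5. Those with one reached 67.7 and 71.6. The medians of peptide-negative regions were below those of peptide-positive regions on all 20 chromosomes, for EM and for MM.

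**Figure D1:**
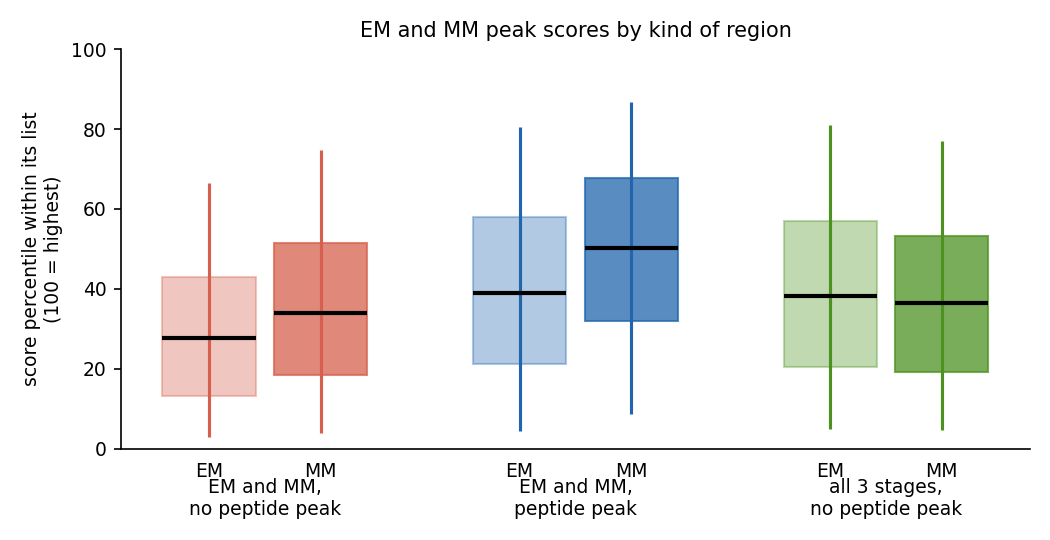
Score percentile within the list (vertical axis, 100 is the highest-scoring peak) of the EM and MM peaks in 3 kinds of region: EM and MM regions without a COT peak that lack or have a peptide peak, and regions of all 3 stages that lack one. Black bars are medians, boxes the quartiles and lines the 5th to 95th percentiles over regions; the regions without COT and peptide peak are lowest, with medians of 27.7 for EM and 34.0 for MM.

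Both peaks lay in the lower 50% of their list in 3060 peptide-negative regions (65.1%) and both in the upper 50% in 425 (9.04%). The corresponding shares of peptide-positive regions were 40.6 and 26.3%. Peaks of the highest-scoring 10% were rare. The EM peak reached that class in 13 regions, the MM peak in 22, either peak in 30 and both in 5. Conversely, 890 EM peaks (18.9%) and 626 MM peaks (13.3%) came from the lowest-scoring 10% of their list. Seen from the lists, 16.3% of the lowest-scoring 10% of EM peaks lay in peptide-negative regions, 14.4% of the fourth from the bottom, 7.13% of the sixth and 0.236% of the highest. In the MM list the share was highest in the third decile, at 12.3%, with 9.79% in the lowest and 0.343% in the highest. Over the whole lists it was 8.55% of EM peaks and 7.33% of MM peaks. Peaks from the lower part of the score order thus made up most of these regions. By percentile, the EM peaks stood lower than the MM peaks. Percentiles depend on list length, here 55140 EM and 64146 MM peaks, so the order by place from the top can differ.

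The EM and MM percentiles of a region were only loosely related. Spearman's rho over the 4701 peptide-negative regions was 0.324, against 0.483 over the peptide-positive ones, 0.445 over all-stage regions without a peptide peak and 0.754 over those with one. These are descriptions across regions that share their libraries. The sets also differ in their range of scores, whose part in rho was not tested. EM and MM peaks fell into the same decile of their lists in 832 regions (17.7%) and within 1 decile of each other in 2231 (47.5%). In 300 regions they were 5 or more deciles apart, and in 234 of these the MM decile was the higher one. The MM percentile exceeded the EM percentile in 59.0% of peptide-negative regions, by a median of 5.57 points over all of them. In peptide-positive regions it did so in 65.6%, with a median of 8.57 points, and in all-stage regions without a peptide peak in 44.5%, with a median of -3.01 points.

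**Figure D2:**
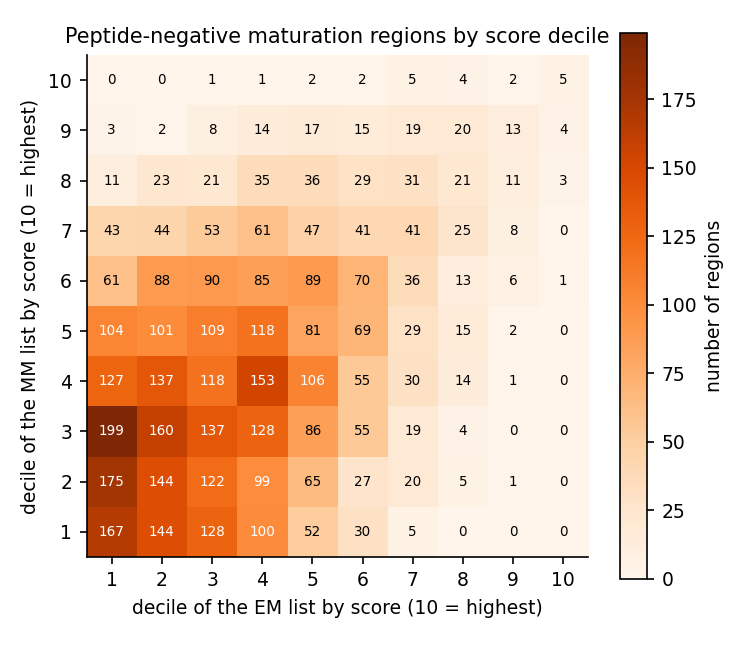
Number of peptide-negative maturation regions in each combination of the decile of the EM list (horizontal) and of the MM list (vertical) that their peaks fall into, 10 being the highest-scoring decile. Regions crowd into the lower left, with at most 199 in 1 field, and the upper right field, where both peaks are in the highest decile, holds 5.

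The absence of a peptide peak was next compared at like score. With each list cut into deciles by score, in every decile of the EM list and of the MM list, regions without a COT peak lacked the peptide peak more often than regions with one. In the lowest decile by EM score the shares were 53.9% (exact interval 51.4 to 56.3) without and 30.9% (28.6 to 33.4) with a COT peak. In the fifth they were 40.2 and 15.0%, and in the eighth 20.3 and 5.27%. In the highest decile they were 14.4% (7.92 to 23.4), from 13 of 90 regions, and 1.18%. By MM score the share fell from 61.8% in the lowest decile to 9.87% (22 of 223 regions) in the highest without a COT peak. With a COT peak it fell from 40.8 to 0.518%. The intervals cover counting error only, and neighbouring regions are not independent.

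**Figure D3:**
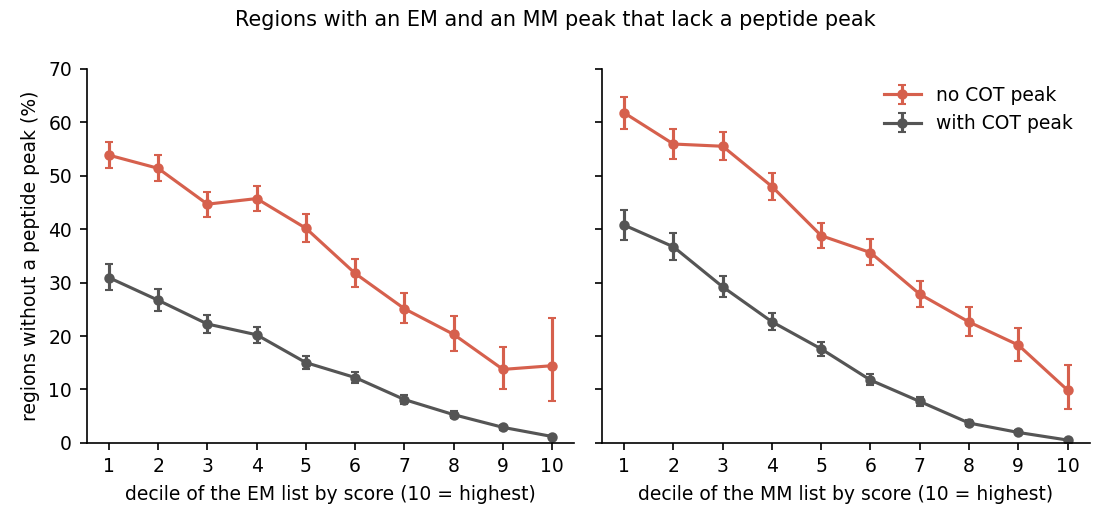
Share of regions with EM and MM peaks that lack a peptide peak (vertical axis, percent), by decile of the EM list (left) or MM list (right), for regions without and with a COT peak; bars are exact 95% binomial intervals. Shares are lower at the high-scoring end, although without a COT peak they are slightly higher in EM decile 4 than 3 and in 10 than 9, and the regions without a COT peak lie above in every decile, at 53.9 against 30.9% in the lowest EM decile.

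Both scores were then held together in a grid of 5 EM by 5 MM classes of 20% each. In 24 of the 25 fields the regions without a COT peak lacked a peptide peak more often than the regions of all 3 stages. The exception was the field of the highest EM and second-lowest MM class, with 1 of 9 against 11 of 56 regions. In the field lowest in both, 62.1% of 1014 regions without a COT peak had no peptide peak, against 43.8% of the all-stage regions. In the field highest in both, it was 10.2% of 235 against 0.862% of 8235. With the all-stage regions weighted to the scores of the regions without a COT peak, their share without a peptide peak was 20.5%, against 41.2% observed. All-stage regions were longer. COT peaks can add to their length, but their EM peaks were also wider than those of regions without a COT peak. Median EM widths were 250 against 200 bp without a peptide peak and 400 against 250 bp with one. Median MM widths were 250 bp in both sets without a peptide peak, and 450 against 350 bp with one. With the peptide overlap judged on EM and MM peaks alone, which sets aside only the length added by COT peaks, the weighted share was 20.6%. By region width the difference was small among the narrowest regions, at 71.8% of 511 regions of 100 to 150 bp against 66.7% of 78 with a COT peak. It was 42.1 against 25.5% at 300 to 350 bp, and 10.5 against 1.15% at 600 bp or more.

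Peptide-negative regions stood below peptide-positive ones in both lists, although the peptide antibody was used at EM alone. Their median percentile differed by -11.2 points at EM and -16.4 at MM, and with lists cut to equal length by -10.0 and -11.8. Percentiles stayed those of the full lists, and the cut took more low-scoring peaks from the longer MM list. It thus narrowed the range of MM percentiles more, so the smaller MM difference cannot show an effect of list length. Within each decile of the EM list, the MM percentile of peptide-negative regions was the lower one. The gap was 10.6 points in the third decile, with medians of 31.0 and 41.6. It was 12.6 points in the fifth (38.9 and 51.5) and 3.01 points in the highest (86.1 and 89.1). Within each decile of the MM list the EM percentile was also lower, with medians of 20.3 and 22.8 in the lowest, 30.1 and 32.7 in the fifth, and 70.1 and 78.4 in the highest.

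The strongest peptide-negative region, by the mean of both percentiles, lay on chromosome 3 at 34068051 to 34068600. Its EM peak of 500 bp was in place 839 of 55140 and its MM peak of 550 bp in place 1628 of 64146. The nearest peptide peak was 3200 bp away and the nearest COT peak 3700 bp. It thus ranked high in both maturation lists, with gaps a little above the medians given below. Chromosome 8 held the next, at 42793051 to 42793500, with an EM peak in place 1562 and an MM peak in place 2346. It stood beside an all-stage region 150 bp away, with the nearest peptide peak at 150 bp and the nearest COT peak at 200 bp. The third, on chromosome 6 at 4254001 to 4254550, had EM and MM peaks with the same edges, in places 1970 and 2157. A COT peak was 700 bp from it and a peptide peak 1400 bp.

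The fourth, on chromosome 10 at 3259951 to 3260550, took place 1302 at EM and 4963 at MM, with a peptide peak 400 bp away. Another, on chromosome 13 at 10823401 to 10823850, took places 2594 and 4316. It was remote, with the nearest COT peak at 37200 bp and the nearest peptide peak at 51000 bp. These 5 regions were those with both peaks in the highest-scoring 10%, and also the 5 with the highest EM percentiles. Next in mean percentile came chromosome 13 at 39611051 to 39611500 (places 4188 at EM and 6646 at MM) and chromosome 10 at 1981351 to 1981800 (6405 and 5317). The region on chromosome 1 at 56722601 to 56723050 took places 3372 and 8935, and lay at 99.9% of the chromosome's spanned length. Its nearest peptide peak was 52500 bp away. The last of the first 10 were on chromosome 14 at 45107051 to 45107500 (7063 and 5427) and chromosome 2 at 45600351 to 45600800 (5969 and 7148). The 10 regions lay on 8 chromosomes and were 450 to 600 bp wide.

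The highest MM percentile belonged to a region on chromosome 15 at 10930401 to 10930900. Its MM peak of 500 bp was in place 1473, whereas its EM peak of 350 bp was in place 16725. A similar one, spanning 13234151 to 13234500 of chromosome 9, had its MM peak in place 2663 and its EM peak in place 26737. Both were strong at MM and moderate at EM. At the other end of the scale, the region in the middle of the order, on chromosome 18 at 2754901 to 2755150, had EM and MM peaks of 200 bp in places 36622 and 45954. A typical region of this kind was thus far down both lists.

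Some regions were narrow and weak in one list and wide in the other. The largest excess of MM was on chromosome 14 at 5211401 to 5211800, where a 400 bp MM peak in place 12369 enclosed a 100 bp EM peak in place 54099. For the region 17813501 to 17813950 of chromosome 3, the MM place was 10452 and the EM place 50975. The others of the first 5 were on chromosome 7 at 40875901 to 40876250 and 37211401 to 37211850, and on chromosome 6 at 46075451 to 46075900. In each of the 5 the EM peak was 100 to 200 bp wide and lay within an MM peak of 350 to 450 bp. The largest excess of EM was on chromosome 16 at 2612101 to 2612350, with place 18021 at EM and 63837 at MM. Chromosome 4 held the next (4972701 to 4973100), with its EM peak in place 9734 and its MM peak in place 52882. Chromosome 15 held the third (13206701 to 13207100), chromosome 14 the fourth (3435451 to 3435800) and chromosome 8 the fifth (18162651 to 18162950). There the MM peaks, 100 to 150 bp wide, lay within the EM peaks.

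Width and mean percentile rose together, with Spearman's rho of 0.714 over peptide-negative and 0.675 over peptide-positive regions. The very widest regions were still not the strongest. The one of 950 bp, on chromosome 15 at 26223451 to 26224400, consisted of an MM peak in place 34602 around a 600 bp EM peak in place 25625. It lay near the middle of the chromosome, at 50.7% of the spanned length, with the nearest all-stage region 40900 bp away. The one of 850 bp, on chromosome 10 at 43035201 to 43036050, joined 2 EM peaks under 1 MM peak in place 5145. The other 3 were 750 bp wide. Chromosome 3 held one (4523451 to 4524200), chromosome 9 another (46242101 to 46242850) and chromosome 13 the last (27955551 to 27956300). In the chromosome 9 region an EM peak of 150 bp lay within an MM peak of 750 bp.

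Gaps from peptide-negative regions to COT and peptide peaks were much like those of the sets beside them. The median gap was 2650 bp to the nearest peptide peak and 2700 bp to the nearest COT peak. No peak of either kind lay within 1000 bp of 3179 regions (67.6%), a share for which no other set is given here. A peptide peak lay within 1000 bp of 26.1% of regions, against 28.4% of all-stage regions without an overlapping one. For COT peaks it was 25.4%, against 24.2% of peptide-positive regions. A peptide peak was within 100 bp of 75 regions (1.60%) and a COT peak within 100 bp of 58 (1.23%). Both were that near to 13, which had median percentiles of 21.6 at EM and 29.9 at MM, and 8 of these 13 also had an all-stage region within 100 bp. Where a peptide peak lay within 500 bp, as for 664 regions, it sat on another merged region in 598 cases (90.1%). In 66 (9.94%) it sat on none. The same share over all peptide peaks was not computed, so these counts are no result about peptide peaks near these regions. The gap to COT peaks was close to that of peptide-positive regions, whose median was 2950 bp.

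**Figure D4:**
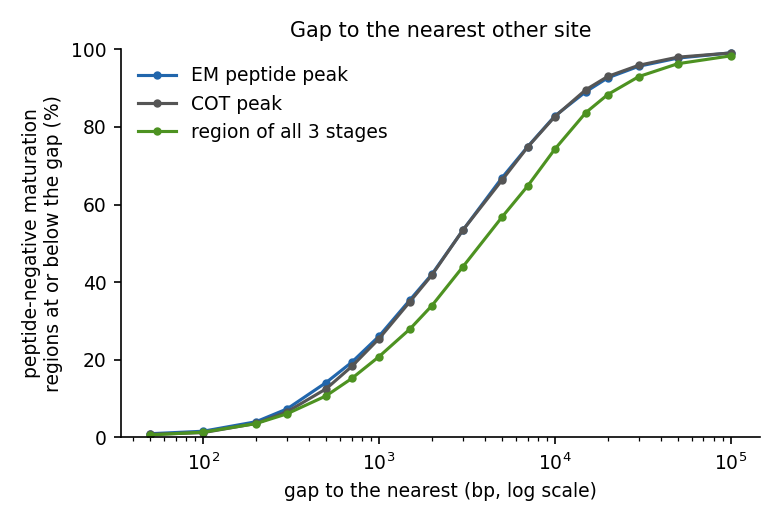
Cumulative share of peptide-negative maturation regions (vertical axis, percent) by gap to the nearest EM peptide peak, COT peak or region of all 3 stages (horizontal, bp, log scale). The curves for peptide and COT peaks nearly coincide, with 26.1 and 25.4% of regions within 1000 bp, and that for all-stage regions lies below, at 20.8%.

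At the edge of the rule, 24 peptide-negative regions touched a peptide peak without sharing a base, and 57 peptide-positive regions shared exactly 50 bp with one. The first had median percentiles of 18.1 at EM and 10.8 at MM and a median width of 250 bp. The second had 15.4, 14.4 and 200 bp. Regions on either side of the line thus stood low in both lists. Among those touching a peptide peak the strongest lay on chromosome 14 at 46074451 to 46074800, with place 35656 at EM and 28700 at MM. It was followed by chromosome 10 at 41379051 to 41379350 and chromosome 5 at 395451 to 395800. A COT peak touched 20 regions. The strongest of them were on chromosome 1 at 48725201 to 48725450 (places 26242 and 31529) and on chromosome 11 at 8142201 to 8142550 and 4150851 to 4151150.

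Position along the chromosome, which the rule did not use, was close to that of all merged regions. Of the 4688 on chromosomes, 68.3% (exact interval 66.9 to 69.6) lay in the outer 20% at either end and 21.7% (20.5 to 22.9) in the centre, from 25 to 75% of the spanned length. These intervals cover counting error only, not the spread between chromosomes, and neighbouring regions are not independent. The centre held 22.4% of the peptide-positive regions and 21.8% of all merged regions. Per chromosome, the share of peptide-negative regions in the centre ran from 9.57% on chromosome 4 to 57.0% on chromosome 13, where all merged regions had 9.14 and 56.1%. It was above that of peptide-positive regions on 10 of 20 chromosomes. A further 13 regions lay on scaffolds.

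Numbers per chromosome followed those of all merged regions in part. Chromosome 13 had the most, with 321 regions or 7.01 per Mb, and chromosome 4 the fewest, with 188 or 3.59 per Mb. Merged regions were also most numerous on chromosome 13, at 5701. They were fewest on chromosome 16, at 2735, of which 200 were peptide-negative maturation regions. As a share of all merged regions of the chromosome, peptide-negative regions made up 5.13% on chromosome 4 to 7.31% on chromosome 16. The share of maturation regions without a peptide peak ran from 38.1% on chromosome 19 to 45.8% on chromosome 16. In regions of all 3 stages it ran from 9.26% on chromosome 1 to 13.0% on chromosome 16, and on each of the 20 chromosomes it was below that of the maturation regions.

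**Figure D5:**
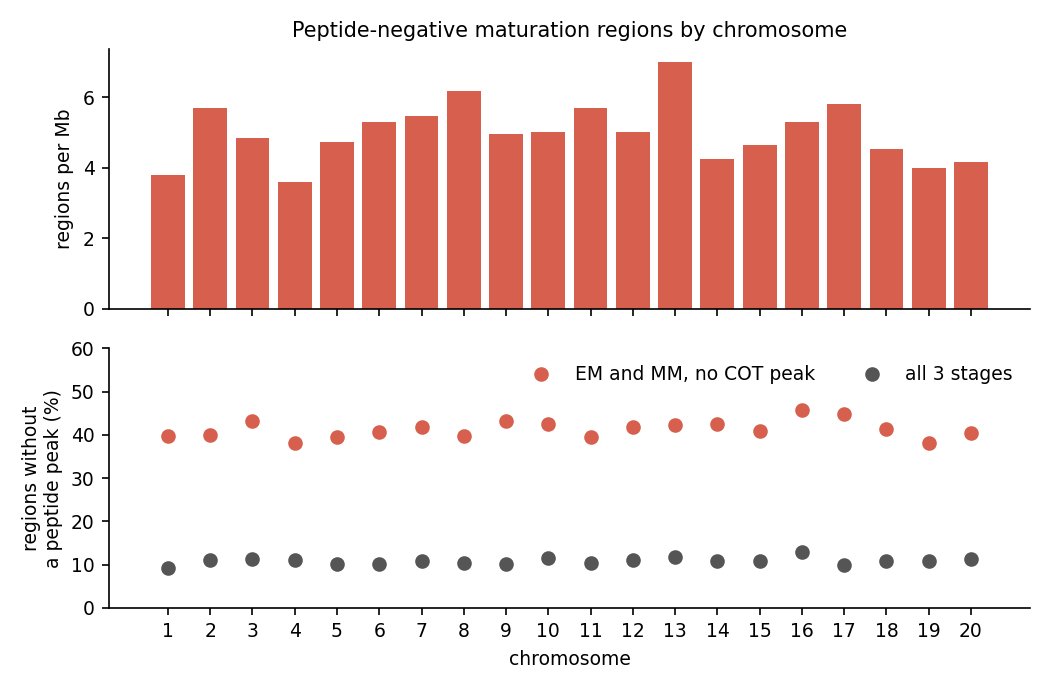
Upper panel, peptide-negative maturation regions per Mb of spanned length on each of the 20 chromosomes; lower panel, percent of regions without a peptide peak among EM and MM regions without a COT peak and among regions of all 3 stages. Chromosome 13 is the densest at 7.01 per Mb, and the points of the maturation regions lie between 38.1 and 45.8% on all chromosomes.

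Neighbours of peptide-negative regions were mostly regions of other kinds, as around merged regions in general. The nearest other merged region was a median of 1450 bp away, against 1400 bp for peptide-positive regions and 1350 bp for all merged regions. It was a region of all 3 stages in 44.9% of cases and an MM-only region in 15.1%, against 45.7 and 15.0% around all merged regions. Another peptide-negative region was the neighbour in 7.45%. The latter share was 7.03% around peptide-positive regions and 5.97% around all merged regions. The neighbour had no peptide peak in 41.6% of cases, against 41.1% over all merged regions. Gaps between successive peptide-negative regions had a median of 84250 bp, and 90 of the 4671 gaps were 1000 bp or less. There were 390 regions (8.30%) with no other merged region within 10 kb. Among regions with a measurable gap, it exceeded 10 kb in 8.26%, against 7.57% over all merged regions.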

How the data were processed

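ChIP-seq of LEC1 was made in 16 libraries in 8 groups. Embryos were crosslinked for 10 minutes with 1% formaldehyde, per the labels' protocols, and fragments of 100 to 500 bp were precipitated with 3 ug of antibody and amplified over 15 PCR cycles. The submitters' processing notes list Bowtie 0.12.7 and SAMtools 0.1.19. Which caller and threshold gave the peaks, and whether replicates were pooled, is not given in the sources used here. Deposited by the authors were 4 peak lists with a score per peak, of unstated meaning, which was used here only for ranks within a list. All peak edges fell on 50 bp bins, with 0 edges off them, once the end was read as the last base. Positions are 1-based.

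Merging, ranking and gaps were computed in Python 3.11.15 with pandas 2.3.3, numpy 2.4.6 and scipy 1.17.1. Merging and the rule were tested on simulated lists, whereas ranking and gap lengths were not. The rule for regions and all comparisons were chosen with earlier results of these data known. Regions were named by rule: the 10 highest by mean percentile, the 5 highest at EM and at MM, the 5 widest, the median one, the 5 most unequal in each direction and the strongest touching a peptide or COT peak, of which 3 each are given, a number set after the data were seen. Tests on genes and motifs were not run, since no sequence of this build was used.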

Additional observations from a re-analysis of the deposited data

How the results depend on the processing

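No result here has a replicate check: no replicate could be left out with 1 list per group, and depth is unknown. No paired analysis was possible because each list carries no replicate. Of the values of the main results under alternatives, 28 stayed within the interval of the value reported (within 1.5 times for counts) and 24 moved further. Several of these outcomes were fixed in advance, so the tally is no measure of robustness. Ends as written, and peptide overlap judged on EM and MM peaks alone for regions without a COT peak, could not move these values. Requiring the EM and MM peaks to overlap gave the reported values again. A narrower centre or end had to hold fewer regions, and distances between midpoints had to be longer. Only the differences of median percentile could change sign, and none did. The number of peptide-negative regions was 3858 to 5035 with reciprocal overlap of 50%, with absence judged within 100 or 500 bp, with ends as written or on chromosomes only. It fell to 425 with the higher-scoring 50% of the EM and MM lists, to 2459 with the higher-scoring 50% of each list and to 2827 with lists of equal length. Ordering by the number in the peak's name, an alternative chosen after seeing the data, gave 412. The share of maturation regions without a peptide peak was 19.4% with the upper 50% of EM and MM and 18.8% by peak number. In both, the COT and peptide lists stayed whole. With the upper 50% of each list the share was 40.3%. It was 34.0% with equal lengths and 38.5% with absence within 500 bp. Peptide-negative minus peptide-positive medians of the EM percentile were -14.7 with reciprocal overlap, -3.36 with the upper 50% of EM and MM, -7.14 with the upper 50% of each list and -2.46 by peak number. For MM they were -20.1, -5.65, -9.69 and -5.27, and -11.8 with equal lengths, where the EM difference was -10.0. Between midpoints, distances had medians of 2975 bp to COT peaks, 3025 bp to peptide peaks and 4250 bp to all-stage regions. The central 40 to 60% held 5.50% of the regions and the outer 10% at either end 38.2%. Of EM peaks 100 bp wide, 18.0% lay in peptide-negative regions, and of MM peaks of 550 bp or more 0.606%. Stricter lists have fewer and stronger peaks by construction, and percentiles stayed those of the full lists, which narrows their range. Otherwise the cause was not tested.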

Other observations

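In 1 Mb windows, peptide-negative maturation regions were most numerous on chromosome 13, with 20 between 39000001 and 40000000 and 20 between 41000001 and 42000000. Of 956 windows 191 held none, and the median was 4. Their number followed that of all merged regions (Spearman's rho 0.891 over windows, which share their libraries). Among the 366 windows with at least 100 merged regions, their share ran from 1.95 to 13.0%, with a median of 5.76%. The lowest share was on chromosome 6 between 3000001 and 4000000, where 5 of 256 merged regions were of this kind and 19 were peptide-positive. The highest was on chromosome 15 between 50000001 and 51000000, with 15 of 115 merged regions, beside 9 peptide-positive ones. These positions were chosen after their values were seen, and the extremes rest on small numbers.

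The same window of chromosome 15 held the longest row of peptide-negative regions with no other merged region between them, 4 in number, from 50602951 to 50637750. Their EM places were 27430, 37256, 43484 and 49673, and their MM places 36556, 49254, 26661 and 57239. All others stood alone (4079 cases), in pairs (285) or in rows of 3 (16).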
